A study of Homo sapiens with 9 samples.

Results

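The genes described here are 3 receptors of the ERBB family, EGFR, ERBB2 and ERBB3, and 6 genes grouped with them as negative regulators. These 6 are ERRFI1, LRIG1, LRIG3, CBL, CBLB and PTPN1, and a limiting role of LRIG3 is taken from this grouping alone. They were chosen by name, with earlier results of these data known. The receptors are ones to which EGF and its relatives bind or which pair with such a receptor. ERBB4, the remaining receptor of the family, is not in the set. All 9 were found in each library, among 16199 genes listed in at least 1 library. HaCaT cells, an immortalized line of human keratinocytes and of wild-type genotype in the labels, were grown in DMEM with fetal bovine serum and studied once confluent. There were 3 groups of 3 libraries: untreated cells in serum-free medium, cells given EGF at 10 nM for 24 h, and cells given bleogen pB1, an EGFR agonist from a cactus, at 1 µM for 24 h. The groups share the line, the confluence and the genotype, the doses of the agonists differ, and there is 1 time point of treatment. The titles give no time for the untreated cells. Nothing in the labels says whether the replicates came from separate cultures, so the p-values measure the spread between these libraries, which may be technical.

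An ERBB receptor is a membrane protein with an extracellular ligand-binding part and an intracellular tyrosine kinase domain. Ligand binding brings receptors together in pairs, the kinase of a partner phosphorylates the tail of the other, and the phosphorylated tail recruits adaptors that start the RAS-MAPK and PI3K-AKT cascades. Signalling is limited by inhibitors that bind the kinase, by ubiquitin ligases that mark the receptor for transport to the lysosome, and by phosphatases that remove the phosphates. In the epidermis EGFR is most abundant in the basal layer, and its ligands drive keratinocyte proliferation and migration.

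Each library held between 20288417 and 21320994 expected counts, which are estimated read numbers per gene, so that the floor of detection, taken as 3 counts, lay between 0.141 and 0.148 CPM for counting error alone. CPM stands for a count relative to the TMM-scaled depth of its library. The 14 keratinocyte markers all reached 1 CPM, from DSG3 at 163.3 CPM in its lowest library to KRT5 at 8106 CPM in its highest. Markers of fibroblasts summed to 7.62 to 9.31 CPM in untreated, 1.3 to 2 CPM in EGF-treated and 6.13 to 9.17 CPM in bleogen pB1-treated libraries, with 3 of 8 genes reaching 1 CPM and COL3A1 the highest. Those of endothelium summed to 3.44 to 4.78, 0.289 to 0.504 and 1.16 to 1.91 CPM, with 2 of 5 genes reaching 1 CPM. Melanocyte markers summed to 5.24 to 9.17 CPM over the 9 libraries, with TYR at 0, and immune markers to 1.4 to 4.18 CPM, with CD1A and CD207 at 0. The part of these low levels in the results below was not tested.

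After EGF, 5 of the 9 genes changed by the thresholds of the study, an adjusted p of at most 0.05 and an absolute log2 fold change of at least 0.5. CBLB, ERBB2 and ERBB3 fell to between 0.414 and 0.51 of their untreated CPM, and ERRFI1 and CBL rose to 1.73 and 1.56 times theirs. EGFR and PTPN1 passed the adjusted p but not the fold limit, with log2 fold changes of −0.43 and 0.46. LRIG1 and LRIG3 passed neither. After bleogen pB1, none of the 9 genes passed the adjusted p. Adjusted p-values are those of the quasi-likelihood test of edgeR over 12394 genes with the Benjamini-Hochberg method. The 2 genes that rose after EGF are to be read against 15.1% of all tested genes that rose, and the 3 that fell against 21.8% that fell. In bulk RNA, fewer cells with a transcript and less of it per cell cannot be told apart.

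**Figure D1:**
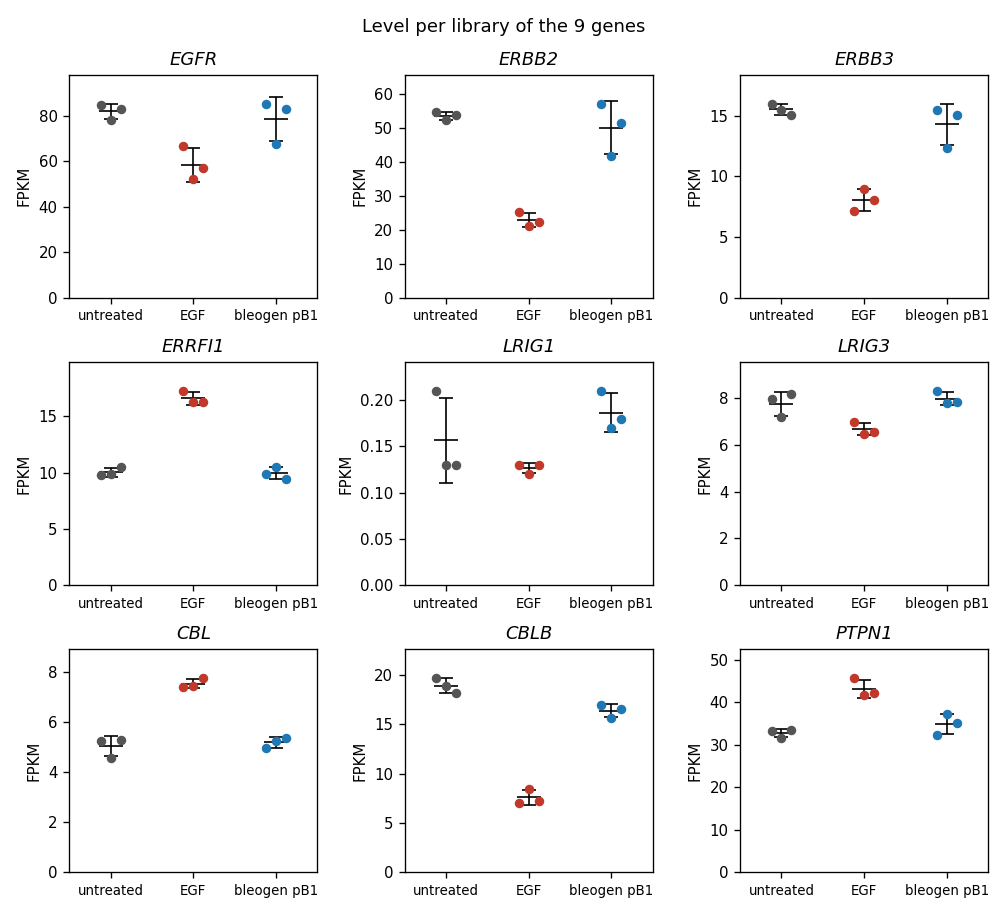
FPKM (fragments relative to transcript length and library depth) of each of the 9 genes in each of the 9 libraries, as points, with the mean and SD of the 3 libraries of a group as a black line and bars; every axis starts at 0. The 3 EGF points of EGFR, ERBB2, ERBB3, CBLB and LRIG3 lie below all untreated points, and those of ERRFI1, CBL and PTPN1 lie above them. The bleogen pB1 points of all genes but CBLB overlap the untreated points.

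FPKM, which is scaled for gene length, was used to set the genes against each other. In untreated cells the order from the highest mean was EGFR at 81.9 FPKM, ERBB2 at 53.6, PTPN1 at 32.8, CBLB at 18.9, ERBB3 at 15.5, ERRFI1 at 10.03, LRIG3 at 7.77, CBL at 5.03 and LRIG1 at 0.157 FPKM. The 3 libraries of each gene in this order did not overlap those of its neighbour. The same order was found after bleogen pB1, again with no neighbours overlapping. After EGF the order became EGFR (58.4 FPKM), PTPN1 (43.2), ERBB2 (22.9), ERRFI1 (16.6), ERBB3 (8.06), CBLB (7.58), CBL (7.54), LRIG3 (6.67) and LRIG1 (0.127). PTPN1 thus stood above ERBB2, and ERRFI1 above ERBB3 and CBLB. ERBB3, CBLB and CBL, next to each other in that order, did not differ beyond their spread.

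EGFR, the receptor for EGF, lies at chr7:55019017-55211628 on the plus strand (GRCh38, as are all positions given). Its level was 84.53, 78.25 and 83.04 FPKM in the untreated libraries, 66.53, 51.99 and 56.77 FPKM after EGF, and 85.15, 67.47 and 82.87 FPKM after bleogen pB1. All EGF libraries were below all untreated libraries, whereas the bleogen pB1 libraries spanned the untreated ones. In CPM the means were 486.3 ± 18.4 (SD, n = 3) untreated and 360.9 ± 47.6 after EGF. The log2 fold change after EGF was −0.43 ± 0.10 (SE; 95% interval −0.65 to −0.21; adjusted p = 0.002), so the interval includes the fold limit. Without EGF replicate 1, the highest EGF library, it was −0.54 and passed the limit (adjusted p = 0.00021). With upper-quartile scaling it was also −0.54 (adjusted p = 0.00043), a scaling under which the median of all genes moved from −0.01 to −0.12 and the share of rises among the genes called fell from 41% to 30.2%.

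ERBB2, which has no known ligand of its own and acts as the partner of the other receptors, lies at chr17:39687914-39730426 on the plus strand. It stood at 54.76, 52.28 and 53.7 FPKM in untreated cells, at 25.3, 21.09 and 22.22 FPKM after EGF and at 57.1, 41.8 and 51.44 FPKM after bleogen pB1. The highest EGF library was well below the lowest of the other 6. Mean CPM was 244.1 ± 5.13 untreated and 108.5 ± 10.3 after EGF, a 2.25-fold decrease with a log2 fold change of −1.17 ± 0.10 (SE; 95% interval −1.39 to −0.95; adjusted p = 7e-07).

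The start of ERBB2 lies within a gene on the opposite strand, PGAP3, and its end overlaps MIEN1, also on the opposite strand. PGAP3 fell by 1.51 on the log2 scale after EGF (adjusted p = 1.7e-07), and MIEN1 had a log2 fold change of 0.27 and did not pass the fold limit. Both genes were picked for their position, after values had been seen. The expected counts of ERBB2 were not whole numbers in 7 of the 9 libraries, so some of its reads were divided between features. The libraries kept the strand, but whether the counting used it is not given in the sources used here, and reads from the overlapping stretches are therefore uncertain. PGAP3 had a mean of 504.7 counts over the 9 libraries. The part of its reads in the values of ERBB2 was not tested.

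The sequence upstream of ERBB2 is shown as that of the most highly expressed gene that fell past both thresholds. EGFR, at a higher level, fell short of the fold limit. The sequence upstream of ERRFI1, below, is shown as that of the gene that rose most. RefSeq promoter sequences (GRCh38.p14) were at hand for 7 of the 9 genes and for 3 of the 5 that changed. The window searched was the 250 bases before the RefSeq start, the most upstream where the table gives several, on both strands, for 7 motifs: the GC box GGGCGG, found in 42.5% of 34943 such windows, the AP-1 site TGANTCA (6.59%), the cyclic AMP response element TGACGTCA (1.63%), the E-box CACGTG (6.32%), the ETS-type core GGAAGT (19.5%), TATAAA (10.8%) and CCAAT (32%). The RefSeq start of ERBB2 is base 39688094 of chromosome 17, which lies 180 bases downstream of the GENCODE start of the gene given above, so that most of its window is inside the GENCODE gene. This window held 1 AP-1 site, 3 ETS-type cores and 1 CCAAT, and no match to the other 4. The 70 bases outside annotated UTRs, at chr17:39687844-39687913 on the plus strand, are coding sequence of PGAP3 and run 5′ to 3′ as follows, with CCAAT (read on the opposite strand, at −243 to −239 from the RefSeq start), the ETS-type core (−227 to −222) and the AP-1 site (−222 to −216) in capitals. The ETS-type core and the AP-1 site share 1 base.
ERBB2: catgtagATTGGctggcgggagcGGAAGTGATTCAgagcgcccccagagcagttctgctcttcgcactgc

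ERBB3, a neuregulin receptor whose own kinase is weak and which signals in pairs with ERBB2 or EGFR, lies at chr12:56076799-56103505 on the plus strand. It was at 15.97, 15.5 and 15.06 FPKM in untreated cells, at 7.15, 8.95 and 8.07 FPKM after EGF, and at 15.5, 12.34 and 15.03 FPKM after bleogen pB1. Again no EGF library reached any of the other 6. Its CPM fell 1.96-fold after EGF, from 81.6 ± 2.66 to 41.6 ± 3.39, with a log2 fold change of −0.97 ± 0.09 (SE; 95% interval −1.17 to −0.77; adjusted p = 1.8e-06). The remaining receptor kinase of the family, ERBB4, is no member of the set and was near the floor, with 21, 17 and 32 expected counts untreated, 5, 4 and 6 after EGF, and 11, 11 and 5 after bleogen pB1. It fell by 2.16 on the log2 scale after EGF (adjusted p = 0.00046), and had a log2 fold change of −1.40 after bleogen pB1 (adjusted p = 0.051). That value passed the threshold in edgeR on the 6 libraries compared, and without EGF replicate 1, EGF replicate 2 or bleogen pB1 replicate 1.

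The makeup of the receptor transcripts was compared within each library, where depth cancels. EGFR made up 53.6 to 54.7% of the summed FPKM of the 4 receptor kinases in untreated cells, 63.4 to 67.2% after EGF, and 54 to 55.5% after bleogen pB1. ERBB2 made up 35.2 to 35.8%, 25.5 to 25.7% and 34.4 to 36.2% in the same order. The sum itself was 146.1 to 155.3 FPKM untreated, 82.05 to 99.0 FPKM after EGF and 121.7 to 157.8 FPKM after bleogen pB1. The ratio of ERBB2 to EGFR was 0.648, 0.668 and 0.647 in untreated cells and 0.38, 0.406 and 0.391 after EGF, a 1.67-fold decrease (two-sided exact permutation p = 0.1, the smallest that 3 against 3 allow). The ratio of ERBB3 to EGFR was 0.189, 0.198 and 0.181 untreated and 0.107, 0.172 and 0.142 after EGF (exact permutation p = 0.1). ERBB3 to ERBB2 overlapped between untreated and EGF-treated libraries (exact permutation p = 0.3).

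ERRFI1, also known as MIG6, is a cytoplasmic inhibitor that binds the kinase domain of EGFR and ERBB2 and is itself a transcriptional target of EGFR signalling. The gene lies at chr1:8004404-8026309 on the minus strand. It was at 9.74, 9.86 and 10.48 FPKM in untreated cells, at 17.25, 16.31 and 16.25 FPKM after EGF, and at 9.9, 10.53 and 9.42 FPKM after bleogen pB1. All EGF libraries stood above all others, and the untreated and bleogen pB1 libraries lay in 1 narrow band. Mean CPM rose 1.73-fold after EGF, from 30.5 ± 1.06 to 52.8 ± 1.97, with a log2 fold change of 0.79 ± 0.07 (SE; 95% interval 0.64 to 0.94; adjusted p = 8.8e-07). After bleogen pB1 the log2 fold change was −0.03, with a 95% interval of −0.18 to 0.12.

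Set against its target, ERRFI1 stood at 0.115, 0.126 and 0.126 of the FPKM of EGFR in untreated cells and at 0.259, 0.314 and 0.286 after EGF, a 2.33-fold higher ratio (exact permutation p = 0.1). After bleogen pB1 the ratios were 0.116, 0.156 and 0.114, and overlapped those of untreated cells (exact permutation p = 0.9). The high value belongs to bleogen pB1 replicate 2, in which EGFR was lowest of its group. The window upstream of ERRFI1 held 1 CCAAT (opposite strand, −90 to −86) and 1 GC box (−70 to −65), in capitals, and no match to the other 5 motifs. With a GC content of 75.2%, it was richer in G and C than the median promoter window, at 58%. It spans chr1:8026310-8026559, minus strand, outside annotated UTRs.
ERRFI1: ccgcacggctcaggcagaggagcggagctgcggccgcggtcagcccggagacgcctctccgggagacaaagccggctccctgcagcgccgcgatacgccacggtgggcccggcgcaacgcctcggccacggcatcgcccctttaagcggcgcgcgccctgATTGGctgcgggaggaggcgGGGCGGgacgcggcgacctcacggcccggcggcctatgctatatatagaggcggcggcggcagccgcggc

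**Figure D2:**
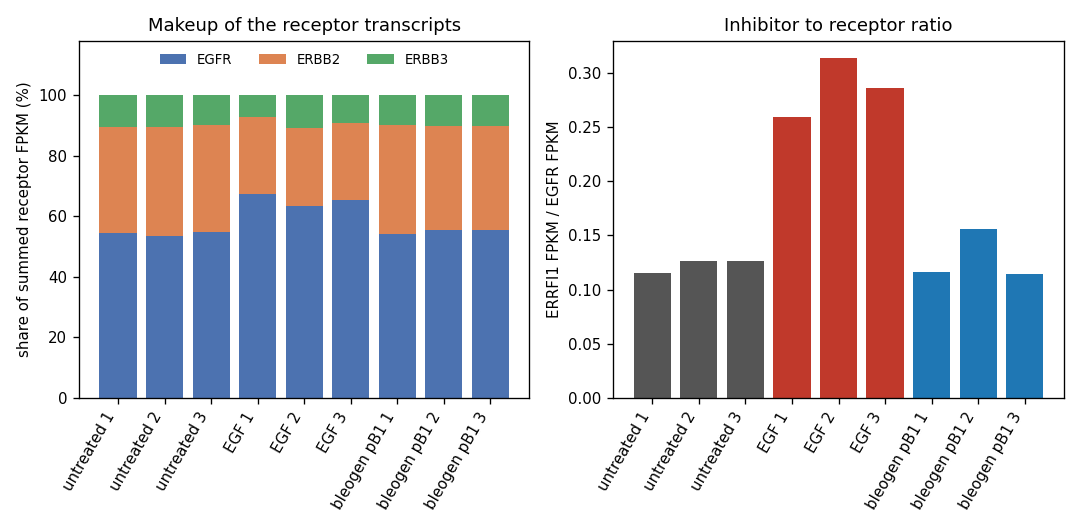
Left, share of the summed FPKM of the receptor kinases held by EGFR, ERBB2 and ERBB3 in each of the 9 libraries, in percent (ERBB4, too low to be seen, is left out); right, the FPKM of ERRFI1 divided by that of EGFR in each library. The EGFR share was 63.4 to 67.2% in the 3 EGF libraries against 53.6 to 55.5% in the other 6, and the ERRFI1 ratio was 0.259 to 0.314 against 0.114 to 0.156.

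CBL and CBLB encode related ubiquitin ligases that bind phosphorylated EGFR and mark it for transport to the lysosome, and they moved in opposite directions. CBL (chr11:119206298-119313926, plus strand) was at 5.26, 4.57 and 5.27 FPKM in untreated cells, at 7.4, 7.46 and 7.75 FPKM after EGF, and at 4.96, 5.23 and 5.36 FPKM after bleogen pB1. Every EGF library was above every other library. The log2 fold change after EGF was 0.64 ± 0.07 (SE; 95% interval 0.50 to 0.78; adjusted p = 3.2e-06), from 55.8 ± 4.18 to 87.0 ± 1.89 CPM. The interval reaches down to the fold limit.

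CBLB (chr3:105655461-105869552, minus strand) was at 19.68, 18.92 and 18.14 FPKM in untreated cells and at 7.03, 8.48 and 7.24 FPKM after EGF. It had the largest absolute log2 fold change of the 9 genes after EGF, −1.27 ± 0.07 (SE; 95% interval −1.43 to −1.11; adjusted p = 2.1e-08), a 2.42-fold decrease from 123.9 ± 5.22 to 51.3 ± 4.92 CPM. In untreated cells CBLB stood above CBL in every library, and after EGF their FPKM ranges overlapped. After bleogen pB1 CBLB was at 16.99, 15.65 and 16.58 FPKM, below all untreated libraries. The log2 fold change was −0.22 ± 0.07 (95% interval −0.38 to −0.07; adjusted p = 0.089). Over 21 refits the adjusted p ranged from 0.021 to 0.31. It passed the threshold in DESeq2 on all 9 libraries (adjusted p = 0.049) and on the 6 compared (adjusted p = 0.021), in edgeR on the 6 compared (adjusted p = 0.041) and in edgeR without EGF replicate 2 (adjusted p = 0.034), and just missed it in edgeR without EGF replicate 1 (adjusted p = 0.05). None of these refits brought the log2 fold change to the fold limit. CBLB was the only 1 of the 9 genes whose bleogen pB1 and untreated libraries did not overlap in CPM, while 29.1% of all genes tested were of this kind.

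PTPN1, or PTP1B, is a tyrosine phosphatase of the endoplasmic reticulum that acts on internalized EGFR and on the insulin receptor. It lies at chr20:50510321-50585241 on the plus strand. It was at 33.32, 31.6 and 33.43 FPKM untreated, at 45.64, 41.74 and 42.09 FPKM after EGF, and at 32.35, 37.2 and 35.13 FPKM after bleogen pB1. The EGF libraries were above all others, and the bleogen pB1 libraries overlapped the untreated ones. The log2 fold change after EGF was 0.46 ± 0.06 (SE; 95% interval 0.32 to 0.60; adjusted p = 3.6e-05), with means of 113.8 ± 2.87 and 156.4 ± 8.4 CPM.

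LRIG1 and LRIG3 encode transmembrane proteins with leucine-rich repeats, and LRIG1 promotes the degradation of ERBB receptors and marks quiescent stem cells of the epidermis. LRIG1 (chr3:66378797-66501263, minus strand) was scarcely detected, with 20, 13 and 13 expected counts in untreated, 13, 12 and 13 in EGF-treated and 21, 17 and 18 in bleogen pB1-treated libraries. At this depth the 95% intervals were wide. On the log2 scale they were −0.90 to 0.42 for EGF and −0.38 to 0.86 for bleogen pB1, so any change inside them remains possible. LRIG3 (chr12:58872149-58920504, minus strand) was at 7.95, 7.19 and 8.17 FPKM untreated, 6.97, 6.48 and 6.57 FPKM after EGF, and 8.31, 7.79 and 7.85 FPKM after bleogen pB1. In FPKM its EGF libraries lay below the untreated ones, and in CPM they overlapped. Its log2 fold changes in CPM were −0.12 after EGF (95% interval −0.29 to 0.05; adjusted p = 0.19) and 0.06 after bleogen pB1 (95% interval −0.11 to 0.23; adjusted p = 0.68). For EGF it passed the adjusted p in edgeR with upper-quartile scaling (0.022) and in limma on FPKM (0.023 to 0.033). Over 21 refits that log2 fold change ranged from −0.23 to −0.08, short of the fold limit.

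**Figure D3:**
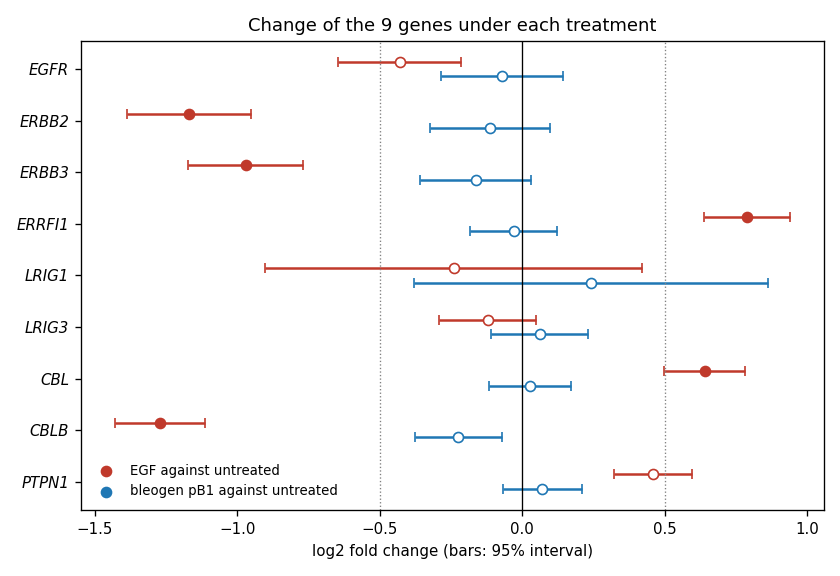
Log2 fold change of the 9 genes after EGF (red) and after bleogen pB1 (blue) against the same 3 untreated libraries, with 95% intervals from edgeR; filled points passed both thresholds, and dotted lines mark the fold limit of 0.5. The 5 filled points, CBLB, ERBB2 and ERBB3 to the left and ERRFI1 and CBL to the right, all belong to EGF, and every bleogen pB1 interval but that of CBLB includes 0.

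For bleogen pB1 the log2 fold changes of the 9 genes ranged from −0.22 (CBLB) to 0.24 (LRIG1), and none was called in either direction. Of all genes tested 0.218% rose and 1.26% fell by the same thresholds, so a count of 0 among 9 genes is near the background. CBLB was the 1 gene with an unadjusted p under 0.05, and DESeq2 on all 9 libraries also called none. The 95% intervals of the 8 genes other than LRIG1 lay between −0.38 and 0.23, which leaves out a change of the fold limit. Bleogen pB1 replicate 2 had the lowest EGFR, ERBB2, ERBB3 and CBLB and the highest PTPN1 and ERRFI1 of its group. Without it, the log2 fold change of EGFR was 0.02 in place of −0.07, and that of ERBB2 was −0.0007 in place of −0.11. The medians over the 9 genes were −0.24 for EGF and −0.03 for bleogen pB1, beside −0.01 and 0.00 over all genes tested. The EGF median is the value of LRIG1 itself, a gene with few counts and a 95% interval of −0.90 to 0.42. As the genes moved both ways after EGF, it is not read as a shift of the set.

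The treated groups were also compared directly, at doses that differ. The same 5 genes differed by the thresholds: ERRFI1 and CBL were higher in EGF-treated cells, where 10.8% of all genes tested were higher, and ERBB2, ERBB3 and CBLB were lower, where 18% were. Their log2 differences, EGF minus bleogen pB1, were 0.82 for ERRFI1 (adjusted p = 9.2e-07), 0.61 for CBL (6.7e-06), −1.06 for ERBB2 (2.4e-06), −0.81 for ERBB3 (1.2e-05) and −1.05 for CBLB (1.6e-07). The difference of CBL was 0.47, under the fold limit, in limma on log2(FPKM + 1). EGFR (−0.36, adjusted p = 0.0078) and PTPN1 (0.39, adjusted p = 0.0002) passed the adjusted p alone. In CPM the EGF and bleogen pB1 libraries of 8 of the 9 genes did not overlap, EGFR being the exception, beside 62.4% of all genes tested. Between EGF and untreated this held for 7 of 9, beside 70.4%. The count for EGF against untreated was thus near the background, and the count between the treatments was above it. That difference from the background was not tested.

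The length that accompanies each gene in the files is an average over its transcripts that differs between libraries for genes with several, and such an average falls by construction when shorter transcripts weigh more. ERRFI1, LRIG1 and CBL have 1 transcript each and a constant length, so 6 of the 9 genes could vary. ERBB3 is listed with 2 RefSeq transcripts, that of the full-length receptor and that of a short form which holds only part of the extracellular region. Its length was 5375 ± 12.5 bases (SD, n = 3) in untreated cells, 5204.88, 4937.56 and 5078.62 bases after EGF, and 5387.35, 5230.55 and 5190.83 bases after bleogen pB1. The EGF libraries were all shorter than the untreated ones, with a mean difference of −301 bases (exact permutation p = 0.1), and the bleogen pB1 libraries overlapped them (exact permutation p = 0.3).

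For LRIG3 the length was 3956 ± 46.3 bases untreated, 4053 ± 27.8 after EGF and 4068 ± 46.0 after bleogen pB1, longer in all treated than in all untreated libraries (exact permutation p = 0.1 for each treatment). CBLB, listed with 21 transcripts, went from 6676 ± 12.6 to 6610 ± 36.8 bases after EGF (exact permutation p = 0.1) and to 6664 ± 12.4 bases after bleogen pB1, overlapping (exact permutation p = 0.4). EGFR, ERBB2 and PTPN1 overlapped between untreated and treated libraries in length. Thus 3 of the 6 genes did not overlap after EGF and 1 after bleogen pB1, beside 19.8% and 10.7% of 7362 genes with a varying length. The weights of the transcripts themselves were not used here.

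**Figure D4:**
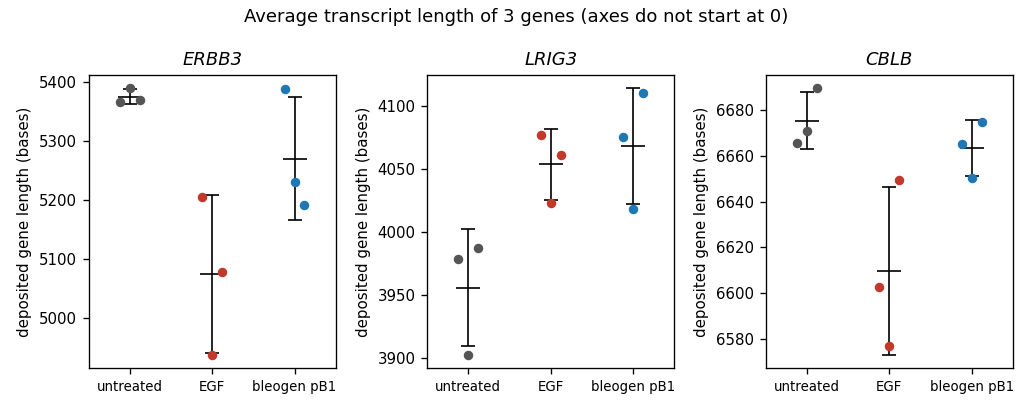
Deposited average transcript length, in bases, of ERBB3, LRIG3 and CBLB in each library (points), with the mean and SD of the 3 libraries of a group; the axes do not start at 0. The 3 EGF libraries of ERBB3 lie at 4937.56 to 5204.88 bases, below all untreated libraries, and the treated libraries of LRIG3 lie above its untreated ones.

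The other genes of the pathway were taken from lists of 74 genes that hold no member, of which 72 were tested. After EGF 10 rose (13.9%) and 7 fell (9.72%), beside 15.1% and 21.8% of all genes tested, with a median log2 fold change of 0.01, where that of all genes was −0.01. None was called after bleogen pB1 in this fit, where PTPRK alone passed the adjusted p (0.027, log2 fold change −0.31). In DESeq2 on all 9 libraries 5 genes passed the adjusted p. Over the refits this number ranged from 0 to 10, the highest without bleogen pB1 replicate 1. Between EGF and bleogen pB1, 10 were higher after EGF (13.9%) and 4 lower (5.56%), beside 10.8% and 18% of all genes tested.

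Among 14 further inhibitors, ligases and phosphatases of ERBB receptors, 3 rose and 3 fell after EGF, or 21.4% each, near the 15.1% and 21.8% of all genes, with a median of 0.11. UBASH3B, a CBL-binding protein with a phosphatase domain, rose from 40.03 ± 1.16 to 124.2 ± 11.6 CPM, a log2 fold change of 1.63 ± 0.08 (SE; adjusted p = 5.6e-09), and stood at 49.5 ± 3.93 CPM after bleogen pB1. SOCS3, a suppressor of cytokine signalling, rose from 6.35 ± 0.70 to 14.9 ± 0.57 CPM (log2 fold change 1.23, adjusted p = 1.6e-06). The receptor-type phosphatases PTPRK and PTPRF fell by 0.75 (adjusted p = 1.1e-06) and 0.63 (adjusted p = 1e-05) on the log2 scale. NEDD4, a ubiquitin ligase, was lower after EGF than after bleogen pB1, with a log2 difference of −0.55 (adjusted p = 8.6e-05). Against untreated cells its log2 fold change was −0.52 after EGF (adjusted p = 9.7e-05) and 0.03 after bleogen pB1 (adjusted p = 0.84).

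Of 24 genes of receptor endocytosis, sorting and deubiquitination, 3 rose (12.5%) and 0 fell after EGF in edgeR. These shares stand beside 15.1% and 21.8% of all genes tested. The median of the list was 0.07, beside −0.01 over all genes. Those that rose include STAM, a part of the complex that sorts ubiquitinated receptors, with a log2 fold change of 0.65 ± 0.09 (adjusted p = 4.6e-05). They also include SH3KBP1, an adaptor that binds CBL, with 0.57 ± 0.06 (adjusted p = 5e-06). Of 19 adaptor and RAS-MAPK genes 5 rose (26.3%) and 2 fell (10.5%), with a median of 0.19. The same shares and median of all genes apply here, and the differences from them were not tested. The adaptor GRB2, which rose, is on this list and on that of endocytosis and counts once in the total. PTPN11, the phosphatase SHP2 that promotes RAS signalling, rose from 166.7 ± 10.2 to 292.7 ± 2.64 CPM (log2 fold change 0.81, adjusted p = 6.2e-07), and the kinase MAP2K1 from 60.4 ± 2.54 to 101.8 ± 10.3 CPM (0.75, adjusted p = 6e-06). The docking protein gene GAB1 fell by 0.76 (adjusted p = 0.0005) and MAPK3, which encodes ERK1, by 0.63 (adjusted p = 2.8e-05). HRAS was higher after EGF than after bleogen pB1, with a log2 difference of 0.66 (adjusted p = 7.8e-05). Against untreated cells its log2 fold change was 0.70 after EGF (adjusted p = 3.3e-05) and 0.04 after bleogen pB1 (adjusted p = 0.85).

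Of 15 genes of the PI3K-AKT, PLC and STAT branch, 0 rose and 1 fell (6.67%) after EGF. These shares stand beside 15.1% and 21.8% of all genes tested, and the median of −0.04 beside −0.01. The gene that fell, PIK3R2, encodes a regulatory subunit of PI3K and went from 277.2 ± 11.9 to 130.0 ± 2.97 CPM (log2 fold change −1.09, adjusted p = 2.2e-07), with 242.1 ± 31.5 CPM after bleogen pB1. PRKCD, a protein kinase C gene, was higher after EGF than after bleogen pB1 by a log2 difference of 0.57 (adjusted p = 0.00035). Against untreated cells its log2 fold change was 0.48 after EGF, short of the fold limit (adjusted p = 0.00099), and −0.10 after bleogen pB1 (adjusted p = 0.61).

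**Figure D5:**
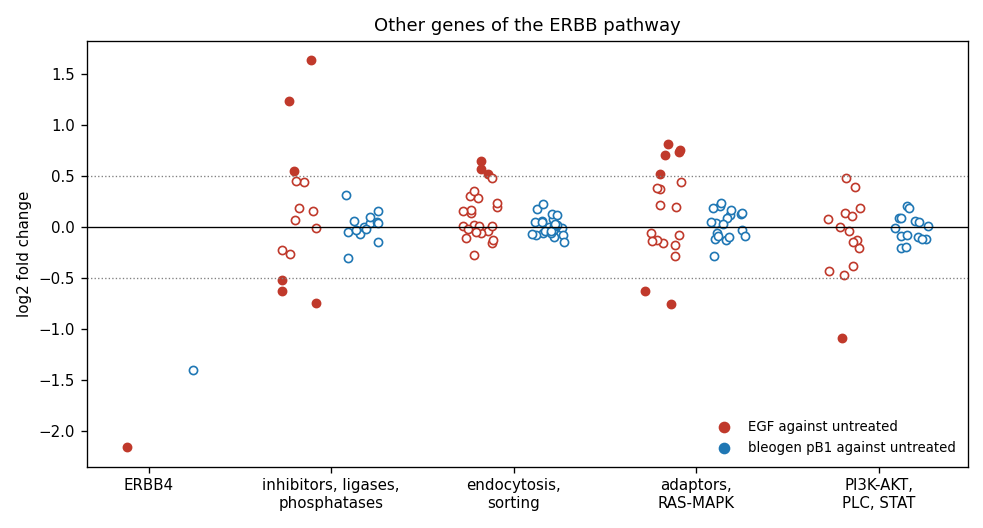
Log2 fold change of the 72 tested pathway genes outside the set after EGF (red) and after bleogen pB1 (blue), by list; each point is a gene, filled points passed both thresholds, dotted lines mark the fold limit of 0.5, and points are spread sideways at random. After EGF 10 filled points lie above 0 and 7 below, with UBASH3B at 1.63 the highest and ERBB4 at −2.16 the lowest, and no bleogen pB1 point is filled.

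For the 5 genes that changed, the genes with the most similar course over the 9 libraries were sought among 10867 genes, by the root mean square difference in log2 CPM relative to the untreated mean. ERBB2 was nearest to NXPH4 (0.062) and ZCCHC11 (0.072), ERBB3 to LRTOMT (0.045) and ANO9 (0.057), and CBLB to EPS8L1 (0.065) and DMD (0.071). ERRFI1 was nearest to CEP170 (0.044) and DLC1 (0.062), and CBL to FER (0.045) and SH3BP1 (0.052). These values describe likeness of level only, over libraries that share 3 groups.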

How the data were processed

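RNA-seq was made from HaCaT keratinocytes in 3 groups of 3 libraries, assigned from their titles and treatment labels. The libraries were enriched for polyadenylated RNA and kept the strand. The paper names the PureLink kit and a BGISEQ instrument, the labels the RNeasy kit and DNBSEQ. Reads were mapped to GRCh38.p12 per the submitters' processing notes, and the counting program is not given in the sources used here. For every gene the authors deposited an expected count, an estimated number of reads before any scaling, and an FPKM, which is scaled for gene length and depth. A gene without an entry in a library was counted as 0.

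Rounded expected counts of the 12394 genes past filterByExpr entered the quasi-likelihood test of edgeR 4.0.16 (R 4.3.3), with TMM factors, all 9 libraries in 1 fit and Benjamini-Hochberg adjustment. Genes were called at an adjusted p of at most 0.05 and an absolute log2 fold change of at least 0.5, the limits of the study, which used DESeq2. Standard errors were derived from the log2 fold change and its F statistic. Ratios and lengths were compared by two-sided exact permutation tests, which cannot go below 0.1. The scripts were tested on simulated data. Alternatives used DESeq2 1.42.0, limma 3.58.1, other scalings, filters and fold limits, and each library left out.

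The 9 genes, the pathway lists and the marker lists were chosen with earlier results of these data known. Named were all 9 genes; of each pathway list and comparison, up to 2 rises and 2 falls of the largest log2 fold change with at least 50 counts on average; the 2 genes most like each gene that changed; and markers at the extremes of level. ERBB4, PTPRK for bleogen pB1, GRB2, PGAP3 and MIEN1 were named outside this rule, after their values were seen. Gene positions (1-based, GRCh38) come from GENCODE release 44, and promoter sequences are from RefSeq on GRCh38.p14.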

Additional observations from a re-analysis of the deposited data

How the results depend on the processing

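Over 21 refits with another tool, scaling, filter or set of libraries (19 for LRIG1, which an FPKM filter removes), the log2 fold changes of the 5 genes that changed after EGF kept their direction, from 0.68 to 0.82 for ERRFI1, 0.50 to 0.67 for CBL, −1.38 to −1.22 for CBLB, −1.27 to −1.11 for ERBB2 and −1.08 to −0.87 for ERBB3, and all 5 stayed past both thresholds. EGFR ranged from −0.54 to −0.34 after EGF. Without a fold limit 8187 genes and 41 pathway genes were called after EGF, 509 and 1 after bleogen pB1, and 7214 and 35 between the treatments. With a limit of 1 these were 1892 and 4, 31 genes, and 1458 and 2, and of the 9 genes 2 were called after EGF and 2 between the treatments. limma on log2(FPKM + 1) without a filter called 99 genes after bleogen pB1, and edgeR on the 6 libraries called 1 pathway gene. With a library left out, the calls after bleogen pB1 numbered 102 to 436 genes in place of 183, the highest without bleogen pB1 replicate 1 and the lowest without untreated replicate 1 or bleogen pB1 replicate 3, and 0 to 1 pathway genes. After bleogen pB1, where no gene of the set was called, the sign turned for EGFR (−0.136 to 0.0243 with a library left out, the highest without bleogen pB1 replicate 2), ERRFI1 (−0.0745 to 0.0088, the highest without bleogen pB1 replicate 3) and CBL (−0.034 to 0.0598, the lowest without untreated replicate 2). Leaving out a library also turned differences within the spread: the log2 ratio of ERRFI1 to EGFR (−0.0901 to 0.139) and of ERBB3 to ERBB2 (−0.0396 to 0.021) after bleogen pB1, and the length of EGFR (−29.3 to 9.59 bases) and ERBB2 (−15.7 to 4.26) after EGF and of ERBB2 (−1.08 to 4.86) after bleogen pB1. The causes of these changes were not tested. The correlations of the deviations of same-numbered libraries of different groups were −0.03 to 0.207. Those of differently numbered libraries were −0.253 to 0.163. With 3 libraries per group these values cannot decide whether libraries were paired. With the replicate block 5, 0 and 5 genes of the set were called for EGF, bleogen pB1 and the difference of the treatments, as without it, and 4560, 186 and 3550 genes in all. Depth limits what can be said of LRIG1 and ERBB4.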
